A study of Mus musculus with 18 samples.

Results

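Spleens of mice given a high fat diet, streptozotocin (STZ) and a control faecal microbiota transplant were compared with spleens of untreated mice, across all genes measured by RNA sequencing. The comparison took 6 of the 18 libraries in the series. In the HSCF group (n = 3), ICR mice aged 10 weeks had the diet, STZ, which damages the insulin-producing cells, and the transplant that the labels call control-FMT. In the control group (n = 3), ICR mice of the same age were untreated. The groups therefore differ in diet, STZ and transplant at once, and these cannot be told apart from the contrast alone, since no group had the transplant without the diet and STZ. The other groups of 3 were HS (diet and STZ alone), HSA10 (diet, STZ and AOS at 10 mg/kg), HSAF (diet, STZ and a transplant labelled AOS10-FMT) and A10 (AOS alone). The labels do not spell out AOS. Nor do they say whether replicate libraries stand for different mice. The p-values therefore cover only the variation among these libraries, and it may be technical. Levels are FPKM, the deposited values, and changes are coefficients on log2(FPKM + 1) with HSCF minus control as the direction. A gene is described as called where its Benjamini-Hochberg adjusted p from limma was under 0.05 over the 12969 genes that reached 1 FPKM in 3 or more of the 18 libraries.

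The spleen filters blood, recycles old red cells, houses lymphocytes and, in mice, makes red cells throughout life. Many of its cells carry a circadian clock, in which the activators CLOCK and ARNTL drive genes whose products feed back on them: the period and cryptochrome repressors, and the nuclear receptors REV-ERB alpha and beta (Nr1d1 and Nr1d2), which repress Arntl and Npas2. Transcription factors of the PAR bZIP class (Dbp, Tef and Hlf) carry the rhythm to further genes, and NFIL3 opposes them. Glucocorticoids, which are released in daily rhythm and under stress, act on Per1 and on Ddit4, an inhibitor of the growth kinase complex mTORC1.

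The labelled tissue was checked against 12 spleen markers that stand for B cells, T cells, red cell precursors, macrophages and the spleen's own stroma. All were present in each of the 6 libraries, with Siglec1 at 3.68 FPKM or more and the spleen-forming homeobox genes Tlx1 and Nkx2-5 at 11.45 or more and 3.05 or more. Libraries stood apart within both groups. Control 1 was far from the other controls on the first principal component of all 18 libraries (-31.5, against -2.66 and 19.4), and HSCF 2 was far from the other HSCF libraries (25.3, against -2.92 and -7.52). Haemoglobin transcripts took 35.5%, 14.7% and 25.7% of the summed FPKM in HSCF 1, 2 and 3, against 34.4%, 27.1% and 21.5% in control 1, 2 and 3. Between 12221 and 12898 genes reached 1 FPKM in a library. Absolute depth is unknown, so low values stand without a counting error.

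Of the 12969 genes, 5 were called (0.0386%): 3 rose in HSCF spleens (0.0231%) and 2 fell (0.0154%). The 3 that rose were the clock genes Nr1d1 and Dbp and the mTORC1 inhibitor Ddit4. The 2 that fell were Kap, which encodes the kidney androgen-regulated protein, and Tnp1, which encodes a transition protein that replaces histones in maturing sperm cells. Both were tested only because of the control libraries, so their direction was fixed by the filter. At an unadjusted p under 0.05, 883 genes were higher in HSCF (6.81%) and 638 lower (4.92%). The groups did not overlap for 633 genes on the higher side (4.88%) and 634 on the lower side (4.89%). The median log2 change over all genes was 0.02, and 55.4% of the genes were higher in HSCF. The count of 5 called genes was 110 without control 3, 11 without control 2, 9 without HSCF 1 and 2 (Kap and Nr1d1) without HSCF 2, HSCF 3 or control 1.

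**Figure D1:**
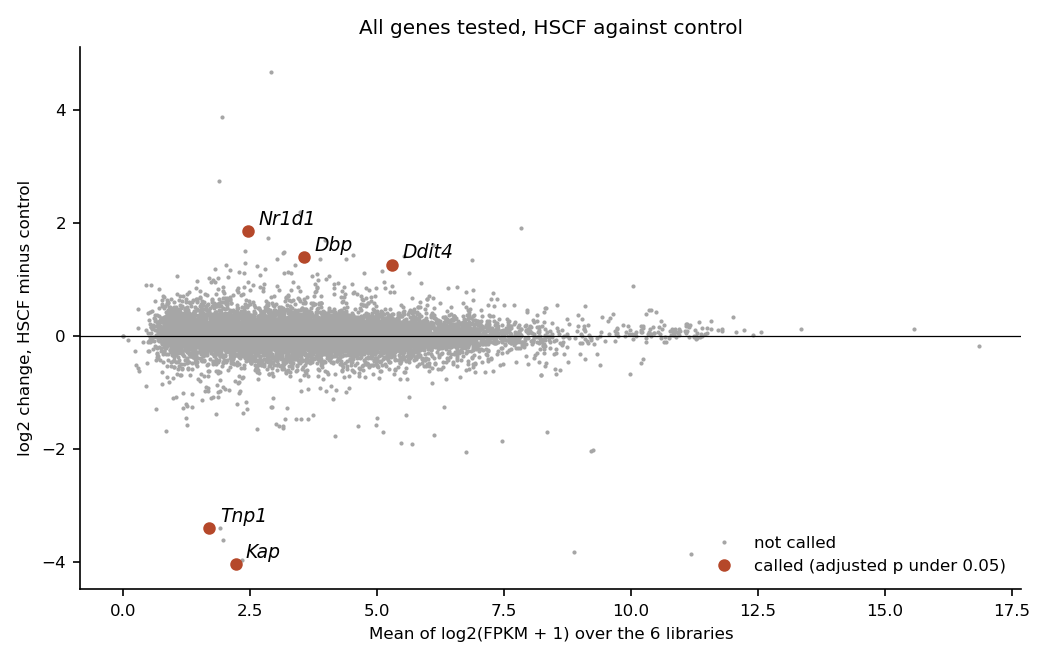
Change of each of the 12969 genes tested, as HSCF minus control on the log2(FPKM + 1) scale (vertical axis), against the mean level over the 6 libraries (horizontal axis). Nr1d1 (1.85), Dbp (1.39) and Ddit4 (1.26) rose and Kap (-4.04) and Tnp1 (-3.40) fell; uncalled genes that lie as far from 0, such as Prm1 (-3.96), differ widely between libraries of a group.

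The clock repressor Nr1d1 (chromosome 11, 98767932 to 98775333, minus strand, mm10) had 9.38, 10.61 and 8.51 FPKM in HSCF spleens, against 1.61, 1.99 and 2.13 FPKM in control spleens. The lowest HSCF library was well above the highest control library, and the mean level was 4.97-fold higher in HSCF (9.50 ± 1.06 against 1.91 ± 0.27, SD, n = 3 each). The change was 1.85 on the log2 scale (SE 0.18, limma adjusted p = 0.000238), and Nr1d1 stayed called without any 1 of the 6 libraries (adjusted p 0.00105 to 0.00313).

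Dbp (chromosome 7, 45705088 to 45710203, plus strand) had 15.53, 24.45 and 15.75 FPKM in HSCF spleens, against 4.89, 7.12 and 7.15 FPKM in control spleens. The lowest HSCF library was thus above the highest control library, and the mean was 2.91-fold higher in HSCF. The log2 change was 1.39 (SE 0.21, limma adjusted p = 0.0246). This call was lost without HSCF 2 (limma adjusted p = 0.167), HSCF 3 (0.0593) or control 1 (0.125), while the change stayed between 1.19 and 1.49.

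Promoters of Nr1d1 and Dbp, the clock genes that rose, are shown with those of Per1 and Ciart, uncalled clock genes whose groups did not overlap. Each window runs from 250 bases before to 50 bases after the start of the gene in RefSeq (GRCm38.p6), and capitals mark CACGTG, the E-box that CLOCK and ARNTL are known to bind. The windows lie at chr11:98775328-98775627 (minus strand) for Nr1d1, chr7:45704997-45705296 (plus strand) for Dbp, chr11:69098699-69098998 (plus strand) for the first of the Per1 starts and chr3:95882179-95882478 (minus strand) for Ciart.
Nr1d1: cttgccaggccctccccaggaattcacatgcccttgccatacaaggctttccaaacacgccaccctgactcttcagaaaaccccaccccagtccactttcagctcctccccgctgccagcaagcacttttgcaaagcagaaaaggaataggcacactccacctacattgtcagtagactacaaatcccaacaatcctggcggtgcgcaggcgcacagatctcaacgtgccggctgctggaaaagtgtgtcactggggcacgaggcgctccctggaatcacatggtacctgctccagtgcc
Dbp: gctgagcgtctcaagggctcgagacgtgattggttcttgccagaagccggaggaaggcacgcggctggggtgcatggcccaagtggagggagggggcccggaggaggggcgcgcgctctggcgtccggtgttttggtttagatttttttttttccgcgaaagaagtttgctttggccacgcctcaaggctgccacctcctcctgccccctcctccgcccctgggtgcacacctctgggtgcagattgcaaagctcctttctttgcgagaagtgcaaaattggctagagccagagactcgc
Per1: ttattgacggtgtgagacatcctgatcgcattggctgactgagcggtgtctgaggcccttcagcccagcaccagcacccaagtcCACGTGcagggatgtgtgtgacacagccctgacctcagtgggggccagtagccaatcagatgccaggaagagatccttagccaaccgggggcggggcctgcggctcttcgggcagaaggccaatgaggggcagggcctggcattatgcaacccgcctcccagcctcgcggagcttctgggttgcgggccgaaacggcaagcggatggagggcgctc
Ciart: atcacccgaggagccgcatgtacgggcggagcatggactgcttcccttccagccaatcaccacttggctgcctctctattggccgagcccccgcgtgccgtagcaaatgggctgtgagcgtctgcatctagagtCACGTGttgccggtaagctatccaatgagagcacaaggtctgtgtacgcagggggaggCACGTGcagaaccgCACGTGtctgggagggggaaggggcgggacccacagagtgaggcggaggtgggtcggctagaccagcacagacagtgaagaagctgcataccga
Ciart held 3 E-boxes, at -116, -58 and -44 from the start, and Per1 held 1, at -166. Nr1d1 and Dbp held 0 in these windows, which says only that the letters are not there. Of the 20 clock genes listed, 16 had a window, and 5 of those held the motif (Per1, Cry1, Tef, Bhlhe41 and Ciart), against 8.09% of the 27025 genes with a window. The cyclic AMP response element TGACGTCA was in the window of 1 of the 16, Hlf, against 2.03% of all genes. Both motifs read the same on both strands and can share letters at their ends; no clock window held both.

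The rest of the clock list showed values on both sides. Of its 20 genes 19 were tested: 2 were called, both higher, 11 were higher and 1 lower at an unadjusted p under 0.05, and the groups did not overlap for 9, all higher. Over all genes the shares were 6.81% higher and 4.92% lower at that p, and 4.88% without overlap on the higher side. The median log2 change of the list was 0.42, against 0.02 over all genes. Among the feedback repressors, Per1 had 10.96, 13.93 and 16.86 FPKM in HSCF spleens, against 5.42, 7.04 and 9.14 in control spleens, and its adjusted p of 0.0568 was just past the threshold. Nr1d2, the partner of Nr1d1, had 11.73, 15.58 and 11.52 FPKM in HSCF, against 5.66, 8.0 and 10.32 in control. Ciart, a repressor of CLOCK and ARNTL, had 2.62, 3.80 and 3.38 FPKM in HSCF, against 1.48, 2.10 and 1.53 in control. These 3 genes did not overlap between the groups, and neither did Per3 (2.85 to 4.61 in HSCF, 2.22 to 2.72 in control) or Bhlhe41 (3.34 to 4.6 in HSCF, 1.91 to 2.82 in control).

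Among the output factors related to Dbp, Tef had 15.96, 19.25 and 16.45 FPKM in HSCF spleens, against 8.45, 12.17 and 13.29 in control spleens. Hlf was low in both groups, at 1.35, 1.54 and 1.21 FPKM in HSCF and 0.63, 0.82 and 0.71 in control. Neither gene overlapped between the groups, and neither was called. Outside HSCF only HSA10 1, at 1.09 FPKM, reached 1 FPKM for Hlf, so Hlf was tested only because of the HSCF libraries. Its being higher in HSCF was fixed by the filter. It is among the 11 clock genes counted as higher and the 9 without overlap, and adds no weight there. Nfil3, which opposes these factors at shared sites, lay the other way at 2.11, 3.17 and 2.50 FPKM in HSCF, against 3.68, 3.85 and 3.02 in control, and the groups overlapped.

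Npas2, which can stand in for Clock and is repressed by the REV-ERB receptors, was too low to be tested, at 0.46, 0.34 and 0.22 FPKM in HSCF and 0.86, 0.93 and 0.75 in control; all its HSCF values lay below all its control values. Arntl had 5.95, 8.29 and 7.02 FPKM in HSCF, against 5.29, 9.10 and 10.70 in control, and Clock 4.76 to 5.13 in HSCF, against 4.26 to 6.55 in control. Those genes overlapped between the groups, as did Per2, Cry1, Cry2, Rora, Bhlhe40 and the clock kinase gene Csnk1d.

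**Figure D2:**
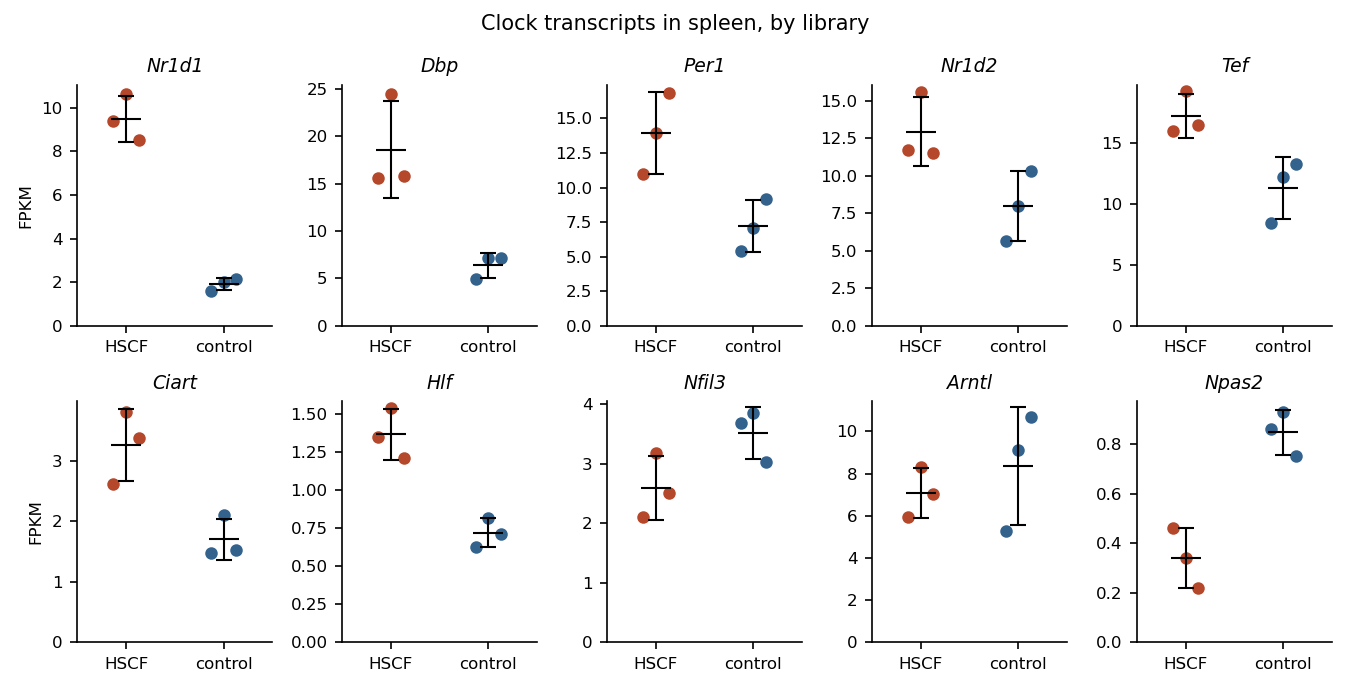
FPKM of 10 clock genes in the 3 HSCF and 3 control libraries (points), with the group mean and SD (bars), each panel on its own axis from 0. Only Nr1d1 and Dbp were called. The first 7 panels show no overlap with HSCF higher, Nfil3 and Arntl overlap, and Npas2, untested, shows no overlap with HSCF lower. For Hlf, tested only because of the HSCF libraries, the direction was fixed by the filter.

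Set beside the other groups, which share these controls, mean Nr1d1 was 9.50 FPKM in HSCF, 7.77 in HSAF, 7.57 in HSA10, 4.97 in A10, 3.61 in HS and 1.91 in control. The mean of Dbp was 18.6 FPKM in HSCF, 13.7 in HSA10, 8.73 in HSAF, 8.22 in A10, 5.63 in HS and 6.39 in control. For Nr1d1 the A10 libraries, at 3.15 to 6.09 FPKM, were also above every control library, although A10 mice had neither diet, STZ nor transplant. The hour at which spleens were taken is not given in the sources used here, so hour and group cannot be told apart for these genes. The list's median log2 change was between 0.27 and 0.46 without any 1 of the 6 libraries, and 0.16 with HSCF 2 and control 1 both set aside, where Nr1d1 was the only member called.

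Ddit4 (chromosome 10, 59949669 to 59951834, minus strand) had 48.02, 68.02 and 65.76 FPKM in HSCF spleens, against 16.46, 27.98 and 31.72 FPKM in control spleens. The groups did not overlap, and the mean was 2.39-fold higher in HSCF (60.6 ± 11.0 against 25.4 ± 7.95, SD, n = 3 each). The log2 change was 1.26 (SE 0.20, limma adjusted p = 0.0387), and the call was lost without HSCF 2 (adjusted p = 0.182), HSCF 3 (0.178) or control 1 (0.0855). Mean Ddit4 was 53.7 FPKM in HSAF, 40.5 in HSA10, 35.9 in HS and 32.8 in A10.

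Ddit4 belongs to a list of 22 genes that glucocorticoids are known to induce, all tested. Of these 1 was called, 10 were higher and 0 lower at an unadjusted p under 0.05, and 7 did not overlap between the groups, all higher. For comparison, 6.81% of all genes were higher at that p and 4.88% did not overlap on the higher side. The median log2 change was 0.27. Next to Ddit4 and Per1, Nfkbia, which encodes an inhibitor of NF-kB, had 101.12, 148.46 and 128.91 FPKM in HSCF, against 67.02, 95.66 and 89.75 in control. The interleukin-7 receptor gene Il7r had 19.56, 27.16 and 25.11 FPKM in HSCF, against 10.79, 15.02 and 18.41 in control. Classical members with overlapping groups were Tsc22d3, at 104.14 to 143.50 FPKM in HSCF and 43.14 to 105.81 in control, and the metallothionein gene Mt1, at 85.15 to 119.50 in HSCF and 78.30 to 145.47 in control. Fkbp5 did not overlap, at 10.06 to 14.18 FPKM in HSCF and 8.82 to 9.93 in control. Without any 1 of the libraries the list's median was between 0.20 and 0.40, and 0 to 5 members were called.

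Other genes with the smallest p on the higher side were not called, and stand here as values. Pdk4, whose product turns off pyruvate use in mitochondria, had 5.50, 9.36 and 7.28 FPKM in HSCF spleens, against 1.71, 2.88 and 2.65 in control spleens (limma adjusted p = 0.0568). The mRNA decay factor gene Zfp36l2 had 100.49, 116.47 and 120.52 FPKM in HSCF, against 47.60, 57.19 and 88.11 in control. Sik1, a kinase gene that cyclic AMP signalling is known to induce, had 21.76, 26.01 and 27.75 FPKM in HSCF, against 7.97, 13.11 and 18.72 in control. All 3 separated the groups completely. So did an entry named only by the number 105247125 (28.53 to 48.85 FPKM in HSCF, 8.16 to 20.98 in control), Zfp296 (9.61 to 14.07 FPKM in HSCF, 6.55 to 6.92 in control) and the low Sh2d6 (1.03 to 1.07 in HSCF, 0.28 to 0.54 in control). Sh2d6 reached 1 FPKM in the HSCF libraries alone, so it was tested only because of them. Its being higher in HSCF was fixed by the filter.

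Pdk4 is among 30 genes of fatty acid oxidation and its PPAR regulators, of which 27 were tested. None was called. At an unadjusted p under 0.05, 7 were higher and 0 lower, beside 6.81% and 4.92% of all genes. The groups did not overlap for 9 on the higher side and 1 on the lower side, beside 4.88% and 4.89% of all genes. The median log2 change was 0.10. Cpt1a, the gate of fatty acid entry into mitochondria, had 36.43, 39.93 and 32.86 FPKM in HSCF, against 22.79, 23.73 and 25.17 in control. The acyl-CoA thioesterase gene Acot1 had 5.39, 5.82 and 4.73 FPKM in HSCF, against 1.39, 1.77 and 1.81 in control, with Acot2, a close relative that may share reads, at 5.23 to 6.67 in HSCF and 3.98 to 5.25 in control. Hadha, which encodes an enzyme of the oxidation spiral itself, stood at 42.08 to 44.50 FPKM in HSCF and 41.86 to 45.48 in control.

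Lipid storage and ketone genes gave the following values, again with 0 calls. Plin2, which coats lipid droplets, had 30.88, 31.23 and 30.38 FPKM in HSCF, against 23.18, 25.49 and 22.18 in control, and averaged 40.1 in HS. Among 7 tested genes of ketone handling, Oxct1, which breaks ketone bodies down, had 25.24, 28.40 and 27.43 FPKM in HSCF, against 34.21, 35.40 and 32.23 in control. Neither Plin2 nor Oxct1 overlapped between the groups. Adipocyte markers, which mark fat tissue, differed between libraries: they took 0.0314%, 0.0742% and 0.0138% of summed FPKM in HSCF, against 0.00743%, 0.0425% and 0.0355% in control, and their part in these values was not tested.

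Kap (chromosome 6, 133849851 to 133853762, minus strand) was the gene with the smallest p. It was listed at 0, 0.48 and 0 FPKM in HSCF spleens, against 13.33, 20.06 and 20.97 FPKM in control spleens. The log2 change was -4.04 (SE 0.28, limma adjusted p = 3.85e-06), its size set in part by the pseudocount of 1, and the call held without any 1 of the libraries. All 15 libraries outside the control group were at 1.67 FPKM or below, and those of A10 were all listed at 0. The 3 control libraries thus stood above all others, whether or not those mice had the diet, STZ, AOS or a transplant. Outside control only HS 3, at 1.67 FPKM, reached 1 FPKM, so Kap was tested because of the control libraries. Its being lower in HSCF was therefore fixed by the filter. With no filter on low values Kap was called as well (limma adjusted p = 1.54e-05).

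Tnp1 (chromosome 1, 73015074 to 73015909, minus strand) was listed at 0 in all 3 HSCF libraries, against 5.44, 39.49 and 3.47 FPKM in control spleens. Its adjusted p by limma was 0.0387, and the call was lost without HSCF 1, HSCF 2, HSCF 3 or control 1 (0.0682 to 0.175). No library outside control was above 0.28 FPKM, so Tnp1 was tested only because of the control libraries and the p does not support its direction. Control 2 was far above the other controls. The protamine genes Prm1 and Prm2, whose products package sperm DNA, had the same order of libraries: Prm1 stood at 0.28, 0.30 and 0.28 FPKM in HSCF and 11.27, 85.59 and 6.56 in control, and Prm2 at 0.15, 0.16 and 0.15 in HSCF and 6.93, 54.96 and 3.00 in control. Tnp2 followed with 0.17, 0.18 and 0 FPKM in HSCF, against 7.42, 70.87 and 3.23 in control.

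A list of 17 spermatid genes had 7 tested. Tnp1, Tnp2 and Prm2 reached 1 FPKM in the control libraries alone and were tested only because of them. Prm1 reached it elsewhere only in HS 1 (1.41) and HSAF 2 (1.27), so it needed the control libraries too. The filter thus fixed the lower level of these genes in HSCF, and the count of lower members carries no weight. Of the untested members, Meig1, Smcp, Odf1 and Akap4 were listed at 0 in all HSCF libraries and at 0.02 to 15.86 FPKM in control, each highest in control 2. Together the 17 genes took 0.0041%, 0.00427% and 0.00392% of the summed FPKM in HSCF, against 0.00901%, 0.0501% and 0.00714% in control. These shares did not overlap between the groups. Most of the HSCF share came from Odf2, which was high in both groups, at 29.18, 23.76 and 24.75 FPKM in HSCF and 32.86, 32.26 and 25.37 in control. Transcripts of kidney, next to which the spleen lies, were also looked at because Kap is best known there. With no filter on low values, Slc22a6, Akr1c21, Acsm2, Mep1a and Cyp2a4, transporter and enzyme genes expressed in mouse kidney, were called lower. They were listed at 0 in all HSCF libraries and at 0.07 to 0.26 FPKM in control libraries. These genes were picked from the 16 called with no filter after their values were seen. Their values are near the floor and stand without a counting error, so the calls lend no independent support. Of the list of genes of kidney and epididymis that androgens are known to regulate, 2 were tested, Kap and the cytochrome P450 gene Cyp4b1. Cyp4b1 lay the other way from Kap, at 10.75, 10.50 and 12.43 FPKM in HSCF, against 6.91, 5.73 and 8.41 in control (limma adjusted p = 0.276). Of the untested members, all low, Slc34a1 and Miox were lower in HSCF without overlap, while Umod, Kl, Defb1, Lcn8 and Crisp1 overlapped between the groups. The part of other tissue in the control samples was not tested.

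**Figure D3:**
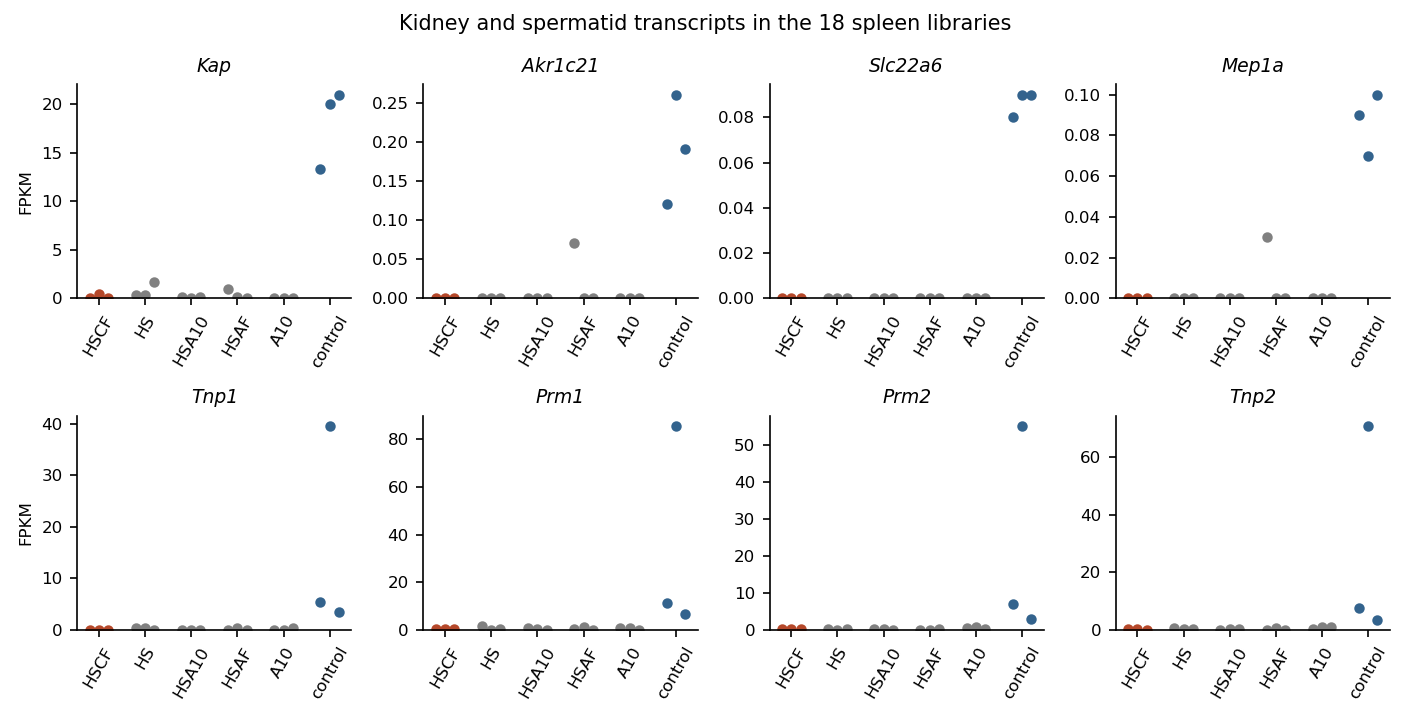
FPKM of Kap, 3 further genes expressed in kidney and 4 spermatid genes in all 18 libraries, with HSCF at the left and control at the right, each panel on its own axis from 0. Kap is at 13.33 FPKM or more in the 3 control libraries and at 1.67 or less in the other 15; the spermatid genes peak in control 2.

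The remaining lower genes with the smallest p were not called. Fanca, of the DNA crosslink repair complex, had 4.47, 4.54 and 5.46 FPKM in HSCF, against 8.72, 7.45 and 7.19 in control. The aspartyl-tRNA synthetase gene Dars had 40.34, 37.60 and 40.25 FPKM in HSCF, against 52.51, 53.50 and 49.01 in control. Cyb5r4, a reductase gene, had 22.78, 24.72 and 24.19 FPKM in HSCF, against 33.69, 30.85 and 29.66 in control. Each separated the groups with tight replicates. Exoc6 (19.60 to 21.21 FPKM in HSCF, 24.63 to 31.27 in control) did so as well.

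The chemokine receptor gene Cxcr2, carried by neutrophils, had 3.30, 4.0 and 4.42 FPKM in HSCF spleens, against 19.39, 8.65 and 7.01 in control spleens. Of 26 tested genes of neutrophils and their granules, 0 were called and all 26 lay lower in HSCF, 19 of them at an unadjusted p under 0.05; only 4 did not overlap between the groups. Among all genes 4.92% were lower at that p, and 4.89% did not overlap on the lower side. The median log2 change was -1.52. Mmp9, a matrix protease of the granules, had 4.71, 3.68 and 3.80 FPKM in HSCF, against 41.25, 13.37 and 5.38 in control. The calprotectin gene S100a8 had 385.67, 254.21 and 279.61 FPKM in HSCF, against 5153.63, 1315.32 and 275.61 in control. For all 26 genes control 1 was the highest library, and control 3 was the lowest for 14. In all, these genes took 0.187%, 0.139% and 0.139% of summed FPKM in HSCF, against 2.06%, 0.631% and 0.138% in control. The list's median was -0.70 without control 1, and without control 3 it was -2.53 with 20 members called. In whole spleen, fewer cells of a type and less RNA per cell cannot be told apart.

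Inflammatory NF-kB genes did not move as a unit. Of 18 tested, 0 were called, 7 were higher and 3 lower at an unadjusted p under 0.05, beside 6.81% and 4.92% of all genes. The lower genes included Il1b, the cytokine interleukin-1 beta, at 9.55, 14.59 and 10.97 FPKM in HSCF, against 25.32, 17.78 and 24.19 in control, and Il1a, at 4.45 to 5.74 in HSCF and 6.65 to 9.64 in control. Neither overlapped between the groups. The higher genes included Icam1, Relb and the feedback inhibitor gene Tnfaip3. Tnfaip3 had 14.22, 19.57 and 17.08 FPKM in HSCF, against 8.84, 12.78 and 16.07 in control, and overlapped. In the list, 1 gene did not overlap on the higher side and 3 on the lower side. The third of those was Clec4e, at 1.14 to 1.48 FPKM in HSCF and 1.52 to 4.96 in control.

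Genes of T cells and dendritic cells lay mostly higher in HSCF without a call, while those of cytotoxic and natural killer cells were split, with 8 of 20 higher and a median log2 change of -0.06. Of 31 T cell genes, 30 were higher, 14 of them at an unadjusted p under 0.05, 5 did not overlap between the groups, and the median log2 change was 0.36. The shares over all genes were 6.81% higher at that p and 4.88% without overlap on the higher side. Foxp3, the factor that defines regulatory T cells, had 4.28, 8.45 and 5.80 FPKM in HSCF, against 1.89, 4.07 and 2.88 in control. Ctla4, an inhibitory receptor on those cells, had 5.55, 11.97 and 6.65 FPKM in HSCF, against 3.15, 5.29 and 3.20 in control. Of the pan T cell genes, Cd3e overlapped, at 31.47, 42.08 and 32.16 FPKM in HSCF, against 17.32, 29.16 and 34.04 in control. Thy1 did not overlap, at 78.48, 108.66 and 87.98 FPKM in HSCF, against 45.82, 66.11 and 73.33 in control. HSCF 2 was the highest of the 6 libraries for 25 of the 31 genes and control 1 the lowest for 30, and with both set aside the median of the T cell list was 0.02. Among 16 dendritic cell genes 15 were higher, with 0 called and a median of 0.32. At an unadjusted p under 0.05, 4 were higher and 0 lower, and 3 did not overlap between the groups, all higher. HSCF 2 was the highest library for 14 of the 16 and control 1 the lowest for 13, and the median was 0.02 with both set aside. The actin bundler gene Fscn1 had 22.47, 44.02 and 25.33 FPKM in HSCF, against 14.35, 20.58 and 16.09 in control. Tbx21, the master factor of type 1 helper T cells, had 7.89, 11.56 and 6.69 FPKM in HSCF, against 3.91, 6.35 and 4.82 in control.

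Red cell and cell division genes lay lower. All 24 cell division genes were lower in HSCF, with 0 called, 7 lower at an unadjusted p under 0.05 and 0 without overlap. Mki67, a marker of dividing cells, had 151.61, 57.26 and 102.49 FPKM in HSCF, against 191.62, 144.83 and 121.43 in control. For every one of the 24, control 1 was the highest library and HSCF 2 the lowest. The median log2 change was -0.47, -0.21 without HSCF 2 and -0.02 with HSCF 2 and control 1 both set aside. Of 39 red cell genes 37 were lower, with 0 called and 3 lower at an unadjusted p under 0.05. At that p 4.92% of all genes were lower. The median of -0.55 was -0.13 without HSCF 2 and 0.08 with HSCF 2 and control 1 both set aside.

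Within the red cell list, the adult beta-globin genes stood apart. Mouse strains carry these genes as alternative haplotypes, named Hbb-bs and Hbb-bt or Hbb-b1 and Hbb-b2, and ICR mice are outbred. Hbb-bs had 5937.88, 844.25 and 44.18 FPKM in HSCF, against 1913.87, 16794.9 and 21592.0 in control, and Hbb-bt followed the same order of libraries. Hbb-b1 had 76099.6, 27805.2 and 62050.8 FPKM in HSCF, against 90345.8, 47517.8 and 23598.1 in control. HSCF 3 and control 1 thus had the lowest Hbb-bs in their groups. These copies are near-identical, so the split of reads between them is uncertain, and the genotype of the mice was not tested.

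**Figure D4:**
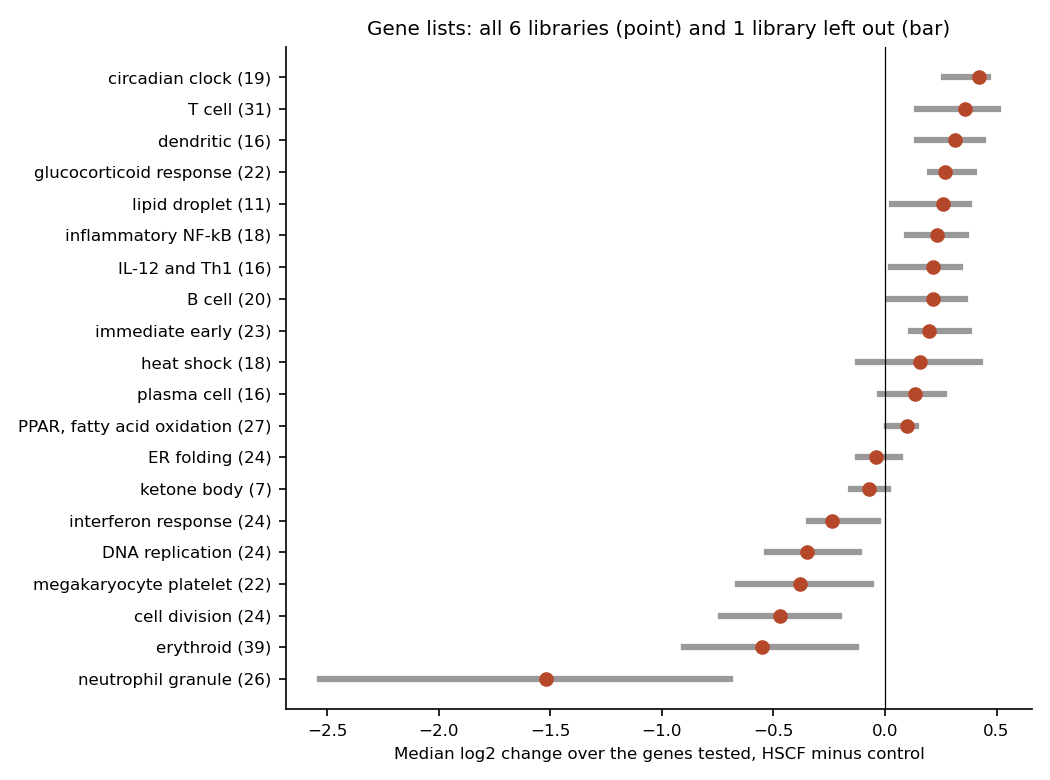
Median log2 change, HSCF minus control, over the tested genes of 20 gene lists, with the number tested in brackets. Points use all 6 libraries and grey bars span the values with 1 library left out; the neutrophil bar runs from -2.53 to -0.70 and the clock bar from 0.27 to 0.46.

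**Figure D5:**
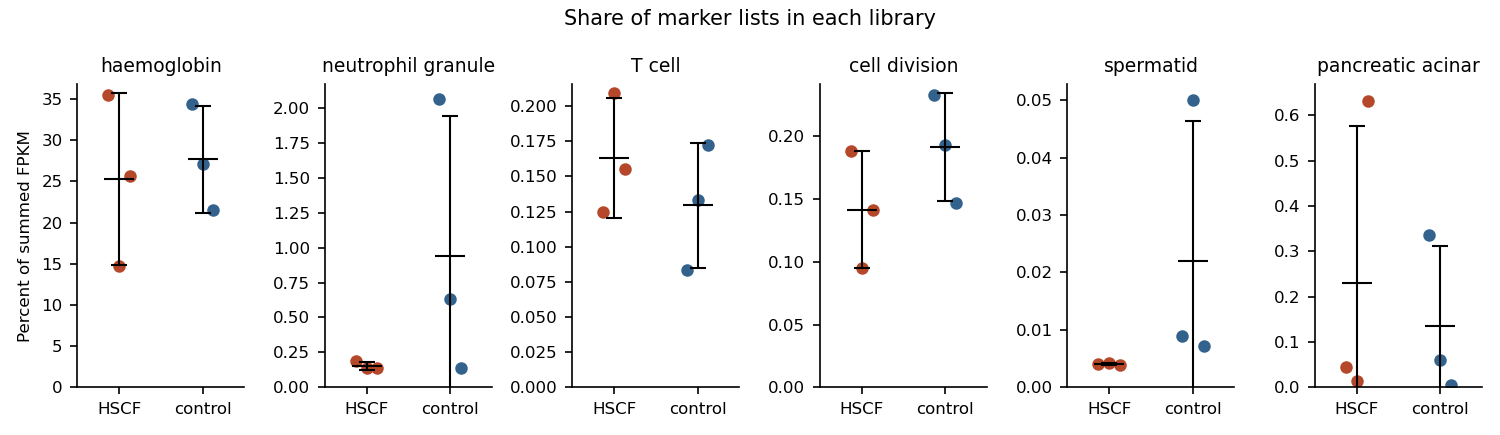
Percent of summed FPKM taken by haemoglobin genes and by 5 gene lists in each HSCF and control library (points), with the group mean and SD (bars, cut off at 0), each panel on its own axis. Control 1 has the highest neutrophil share (2.06%), control 2 the highest spermatid share (0.0501%) and HSCF 3 the highest pancreatic share (0.631%).

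HSCF was also tested against HS, where both groups had the diet and STZ and the transplant is the labelled difference. The hour of collection is not given here either, so it cannot be told apart from the transplant. Of the 12969 genes 1 was called (0.00771%), and 819 had an unadjusted p under 0.05. The called gene was Dbp, at 15.53, 24.45 and 15.75 FPKM in HSCF spleens, against 6.16, 5.32 and 5.41 in HS spleens (log2 change 1.53, SE 0.21, limma adjusted p = 0.0232). Nr1d1 had 9.38, 10.61 and 8.51 FPKM in HSCF, against 3.94, 3.44 and 3.46 in HS, which gave an adjusted p of 0.0649. Neither gene overlapped between those groups. Kap and Tnp1 were at or near 0 in both, with Kap at 0, 0.48 and 0 FPKM in HSCF and 0.31, 0.31 and 1.67 in HS. Leaving out any 1 library of either group left 0 calls, with 516 to 1388 genes at an unadjusted p under 0.05.

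The 2 kinds of transplant were compared as HSAF against HSCF, both with diet and STZ. Here 624 genes were called higher in HSAF (4.81%) and 135 lower (1.04%), a total of 759 that was 1201 without HSCF 2 and 199 to 319 without any other 1 library. Of the 5 genes called between HSCF and control, Dbp alone was called in this contrast, at 9.0, 7.09 and 10.09 FPKM in HSAF, against 15.53, 24.45 and 15.75 in HSCF (log2 change -0.99, SE 0.21, limma adjusted p = 0.0134). Its relatives Tef and Hlf were also called lower in HSAF (limma adjusted p = 0.0475 and 0.0456), while their opponent Nfil3 was called higher (0.000249). Hlf was tested only because of the HSCF libraries, so the filter fixed its direction and the p does not support it. Of the 24 tested genes of protein folding in the endoplasmic reticulum, 13 were called, all higher in HSAF, while between HSCF and control 0 were called, with 10 higher, 14 lower and a median log2 change of -0.04. Canx, a folding chaperone gene and the only member without overlap between those groups, had 61.17, 73.76 and 71.16 FPKM in HSCF, against 78.96, 86.14 and 88.97 in control. Herpud1, of the degradation of misfolded proteins, lay the other way, at 65.76, 92.36 and 79.43 FPKM in HSCF, against 46.77, 69.56 and 68.23 in control, and overlapped.

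Pancreatic acinar genes, which mark the organ beside the spleen, took 0.045%, 0.0149% and 0.631% of summed FPKM in HSCF, against 0.337%, 0.0609% and 0.00572% in control and 3.30%, 0.369% and 0.533% in HS. Their 28 tested members had 0 calls between HSCF and control. Hepatocyte genes took 0.0257% to 0.0434% in HSCF and 0.0078% to 0.0494% in control.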

How the data were processed

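RNA sequencing of mouse spleen gave 18 libraries in 6 groups of 3, of which HSCF and control are compared here. The table holds FPKM as deposited by the authors; the file does not name the unit, which was inferred from its values: summed values varied by 6.14% between libraries and length-weighted totals by 1.61%, with 97.1% of entries matched to GENCODE M21. Reads were aligned with Bowtie 0.12.2 to mm10, per the submitters' processing notes; for the counter and the annotation, no name is given in the sources used here. Precision is limited by the number of libraries, since no counts are given. Relative depth, read from the steps between low values of 4101 genes (tolerance 20%), was 0.995 to 1.04 in the 6 libraries, by a method that could hardly show a large difference.

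Of 19326 entries, 418 were at 0 everywhere and 26 had symbols turned into dates, which are not printed; 3 symbols stood on a second line, kept as an entry of its own. Values were taken as log2(FPKM + 1), and a linear model of the 6 groups was computed in limma 3.58.1 (R 4.3.3) from all 18 libraries. Its eBayes step used a mean trend and robust moderation, with 12 degrees of freedom from the residuals and 3.38 from the prior. Each two-sided p was adjusted by Benjamini-Hochberg within its contrast. Shares of summed FPKM are given as values. The code was tested on simulated data.

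Genes named are up to 15 called genes per direction whose groups did not overlap, or, below 5 of them, the 10 with the smallest p, leaving out predicted genes, pseudogenes and antigen receptor segments, and up to 4 members with the smallest p per described list. Other genes named were chosen after their values were seen. Members and lists (54 lists, 943 genes, 935 in the file) were chosen with earlier results of these data known. Promoters were matched by symbol. Alternatives were another pseudocount, filters, scalings, array weights, the 2 groups alone, a replicate block and leaving out each library; setting HSCF 2 aside with control 1 or 2 was added after seeing the data.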

Additional observations from a re-analysis of the deposited data

Results flagged for a closer look

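In 20 cases, over 19 genes, a gene named for HSCF against control also differed between HSCF and another group that had the diet and STZ, by the limma test of that difference itself. Dbp was higher in HSCF than in HS (log2 change 1.53, SE 0.21, adjusted p = 0.0232), a call that was lost without any 1 library of either group and with the replicate block. The other 19 differences were between HSAF and HSCF. Of all genes tested, 4.81% were called higher in HSAF than in HSCF and 1.04% lower, and 0.00771% were called between HSCF and HS. The genes were named from a contrast with the same HSCF libraries, which favours differences from HSCF, so the count of cases carries no weight.

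Among clock genes, the outputs Dbp (log2 change -0.99, limma adjusted p = 0.0134), Tef (-0.49, 0.0475) and Hlf (-0.42, 0.0456) were lower in HSAF. Nfil3, which opposes them, was higher, at a mean of 6.03 FPKM in HSAF and 2.59 in HSCF (log2 change 0.98, limma adjusted p = 0.000249), as was the repressor gene Bhlhe40 (0.61, 0.0263). Hlf was tested only because of the HSCF libraries, so its being lower in HSAF was fixed by the filter.

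Of genes that glucocorticoids are known to induce, Fkbp5 averaged 27.0 FPKM in HSAF and 12.5 in HSCF (log2 change 1.05, limma adjusted p = 0.000347). Mt1 averaged 227.6 FPKM in HSAF and 101.6 in HSCF (log2 change 1.16, limma adjusted p = 0.0087). Il7r was higher in HSAF as well (log2 change 0.70, limma adjusted p = 0.0322).

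Metabolic genes higher in HSAF were Pdk4 (log2 change 0.81, limma adjusted p = 0.0463), the lipid droplet gene Plin2 (0.55, 0.00331), the ketone enzyme gene Oxct1 (0.29, 0.0283) and the transporter gene Slc16a6 (0.33, 0.0454). Plin2 averaged 45.5 FPKM in HSAF and 30.8 in HSCF. The cytokine gene Il1b averaged 31.6 FPKM in HSAF and 11.7 in HSCF (log2 change 1.36, limma adjusted p = 0.00331).

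Canx (log2 change 0.55, limma adjusted p = 0.00231), Cyb5r4 (0.38, 0.0111) and Dars (0.30, 0.0284) were higher in HSAF. Sh2d6 was lower in HSAF, at a mean of 0.237 FPKM, than in HSCF, at 1.04 (log2 change -0.72, limma adjusted p = 0.00217). Only the HSCF libraries reached 1 FPKM for Sh2d6, so the filter fixed its direction and the p does not support it. Gdpd3 (log2 change -4.79, limma adjusted p = 0.0201) and Mup19 (-2.38, 0.0273), whose HSCF libraries were widely scattered, were also lower in HSAF.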

How the results depend on the processing

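The count of 5 genes called between HSCF and control was 5 with a pseudocount of 0.1, 5 with a minimum of 5 FPKM (4 of them shared, since Tnp1 was no longer tested), 6 without robust moderation, 8 with 75th percentile scaling, 10 with a common total without haemoglobin and acinar genes and 16 with no filter. It was 2 when the 2 groups were fitted alone. Array weights gave 1611; the gene-by-gene algorithm was used because the default did not converge, and HSCF 3 (3.85) and control 2 (4.35) had most of the weight, with the other 4 libraries at 0.278 to 0.554. Leaving out 1 library gave 2 to 110, the highest without control 3. Setting aside HSCF 2 with control 1 gave 2, and HSCF 2 with control 2 gave 7. Kap and Nr1d1 were called under all of these settings. HSCF against HS, 1 call, gave 0 to 0 without any 1 library, and HSAF against HSCF, 759 calls, gave 199 to 1201.

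Same-numbered libraries did not pair (correlations of deviations 0.258, 0.0957 and -0.304). A fit with the replicate block gave 9 calls over all groups and 3 in the 2 groups alone for HSCF against control, 0 for HSCF against HS (949 at an unadjusted p under 0.05) and 909 for HSAF against HSCF.

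Of 1198 changes of single genes under alternatives, 1094 kept their direction and side of the threshold and 3 reversed: Slc16a6 (0.016) and Batf3 (-0.11) with array weights, and Slc16a1 (0.014) with HSCF 2 and control 1 set aside. Of 972 list medians, which have no test, 83 had the opposite sign, in 34 of the 54 lists; they include the red cell list (up to 0.08), lipid droplet genes (down to -0.12), B cell genes (down to -0.08) and ER folding genes (up to 0.07). The cause was not tested. With 3 libraries a group and no counts, low genes cannot be resolved.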

Other observations

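The gene farthest from 0 between HSCF and control, Gdpd3, a phosphodiesterase gene, was not called. It had 5.61, 105.16 and 76.0 FPKM in HSCF spleens, against 0.43, 0.66 and 0.38 FPKM in control spleens (log2 change 4.67, limma adjusted p = 0.183). Values were also scattered elsewhere, at 24.73, 2.10 and 50.55 FPKM in HS and 11.07, 3.44 and 19.72 in A10, while HSA10 and HSAF were at 0.24 to 0.47. Npy, the neuropeptide Y gene, had 23.39, 3.37 and 28.72 FPKM in HSCF and was listed at 0 in all 3 control libraries (limma adjusted p = 0.261). It was above 0 in all 12 libraries of the remaining groups, at 0.17 to 25.08 FPKM. Mup19, a major urinary protein gene of a family of near-identical copies, had 3.41, 9.63 and 17.70 FPKM in HSCF, against 0, 0.01 and 1.94 in control. These 3 genes were chosen after their values were seen.

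With no filter on low values, genes below the test's minimum were called as well. Cd209e, a lectin gene of the DC-SIGN family, had 0.76, 0.62 and 0.56 FPKM in HSCF, against 0.20, 0.08 and 0.08 in control. The casein gene Csn2 had 0.63, 1.33 and 0.72 FPKM in HSCF, against 0.15, 0 and 0.08 in control. Dpep3, a dipeptidase gene expressed in testis, had 0.04, 0.05 and 0 FPKM in HSCF, against 0.26, 0.49 and 0.22 in control.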
